A study of Mus musculus with 3 samples.

Results

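The insulin-like growth factor (IGF) system was followed at single-cell resolution in the mouse iridocorneal angle, the tissue between iris and cornea through which aqueous humor drains. The ligands *Igf1* and *Igf2*, the receptor *Igf1r*, and the binding proteins *Igfbp2*, *Igfbp3*, *Igfbp4*, *Igfbp5*, *Igfbp6* and *Igfbp7* were taken by symbol and followed in every cell. They are 9 of the 31053 genes in the count matrices. The cells came from 6-week-old mice, described as of both sexes, on a mixed strain background partly bred to ICR, and each library was made from the pooled eyes of 2 to 3 animals. Control mice (2 libraries) carried floxed *Angpt1* alleles without Cre. *Angpt1*ΔNC mice (1 library) carried the same floxed alleles with *Wnt1*Cre, which recombines in the neural crest lineage, so that *Angpt1* was removed from neural crest-derived cells such as the trabecular meshwork (TM) and not from endothelium. The comparison between genotypes asks which cell populations of the outflow tract differ in their expression of these genes when neural crest ANGPT1, a ligand of the endothelial receptor TEK, is absent.

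IGF-I and IGF-II are secreted growth factors that signal through the receptor tyrosine kinase IGF1R. Outside the cell most IGF is held by high-affinity binding proteins, which carry it, store it in the matrix and limit its access to the receptor. Proteases release it again: pappalysins cut IGFBP4 and IGFBP5, and HTRA1 cuts several members of the family. IGFBP7 is a more distant relative that binds IGF weakly and is abundant around vessels.

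The 6 binding protein genes lie on 4 chromosomes (GRCm38, GENCODE annotation). *Igfbp2* (chr1:72824503-72852474, plus strand) and *Igfbp5* (chr1:72857932-72874884, minus strand) are neighbours whose 3′ ends face each other across 5457 bp. *Igfbp3* (chr11:7206086-7213923, minus strand) and *Igfbp4* (chr11:99041244-99054392, plus strand) lie far apart on chromosome 11. *Igfbp6* is at chr15:102144362-102149511 (plus strand) and *Igfbp7* at chr5:77349240-77408041 (minus strand). *Igf1* is at chr10:87858265-87937042 (plus strand), *Igf1r* at chr7:67952827-68233668 (plus strand) and *Igf2* at chr7:142650766-142666816 (minus strand), 72622 bp from *H19*. *Igf1*, *Igf2* and *Igfbp7* overlap annotated genes on the other strand, and *Igf2* also overlaps *Gm49394* on its own strand, whose reads the counting may have assigned differently.

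The promoter windows of *Igfbp2*, *Igfbp4* and *Igfbp5* are shown because *Igfbp2* and *Igfbp5* are neighbours whose called genotype differences had opposite signs, and *Igfbp4* and *Igfbp5* had the closest patterns over labels within the family. Each window runs from 250 bases before to 50 bases after the RefSeq start (GRCm38.p6), read 5′ to 3′ on the gene's strand. Capitals mark matches to any of 5 motifs searched on both strands. These were the TATA box spelled TATAAA, the GC box spelled GGGCGG, the CCAAT box, the AP-1 motif TGACTCA and the E-box motif CACGTG. No match of one motif overlapped another in these windows.
*Igfbp2*, chr1:72824230-72824529, plus strand: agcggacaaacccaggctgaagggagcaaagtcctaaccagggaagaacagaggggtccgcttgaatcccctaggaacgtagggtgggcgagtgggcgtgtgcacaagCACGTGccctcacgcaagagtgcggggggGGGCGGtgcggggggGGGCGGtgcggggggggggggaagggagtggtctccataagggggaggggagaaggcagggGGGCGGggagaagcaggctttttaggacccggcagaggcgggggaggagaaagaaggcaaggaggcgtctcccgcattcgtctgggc
*Igfbp5*, chr1:72874816-72875115, minus strand: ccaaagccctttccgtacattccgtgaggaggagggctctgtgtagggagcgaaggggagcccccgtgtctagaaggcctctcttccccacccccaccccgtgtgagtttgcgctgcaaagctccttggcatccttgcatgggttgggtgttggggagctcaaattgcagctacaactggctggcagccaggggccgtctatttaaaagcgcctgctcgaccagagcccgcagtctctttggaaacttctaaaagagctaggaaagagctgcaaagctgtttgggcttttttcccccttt
*Igfbp4*, chr11:99040994-99041293, plus strand: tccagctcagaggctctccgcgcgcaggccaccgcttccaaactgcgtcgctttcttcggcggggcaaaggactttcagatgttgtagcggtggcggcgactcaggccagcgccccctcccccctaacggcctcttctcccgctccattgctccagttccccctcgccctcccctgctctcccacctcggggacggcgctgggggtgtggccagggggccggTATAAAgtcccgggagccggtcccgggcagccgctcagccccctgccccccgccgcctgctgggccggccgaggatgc
The *Igfbp2* window held 3 GC boxes and 1 E-box, in a sequence of 67% G and C. The *Igfbp4* window (71.3% G and C) held 1 TATAAA and none of the other motifs, and the *Igfbp5* window (56.3%) held none of the 5. Over 32851 mouse promoters, whose median was 52.7% G and C, TATAAA was found in 13.6%, GGGCGG in 35.7%, CCAAT in 37.4%, TGACTCA in 5.2% and CACGTG in 7.15%. These matches describe letters in a window and not sites in use. RefSeq gave 13 windows for the 9 genes, of which *Igfbp2* had a second, further downstream, with 1 AP-1 match.

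The libraries held 9076 and 10160 kept control cells and 6772 kept *Angpt1*ΔNC cells, with 66484181 to 80346829 unique molecular identifiers (UMIs) per library and a median of 6329.5 to 7444 per cell. *Angpt1* was at 37.8 and 39.3 CPM (UMIs scaled to a common library total) in the controls and at 0.391 in the *Angpt1*ΔNC library, as the genotype labels state. *Xist*, which marks female cells, was at 0.039 and 0.0249 CPM in the controls and at 652 in *Angpt1*ΔNC, so the control libraries were almost without female cells while the mutant library held both sexes. Sex therefore moved with genotype, and genotype differences were also computed on cells typed as male. Any pair of libraries shared 13 to 25 barcodes among kept cells.

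Cells carry the authors' deposited labels, which number the clusters and name TM1 to TM11, Schlemm's canal (SC), lymphatic endothelium (LEC) and EC2 to EC4. Of the 35 labels, 34 held at least 20 cells in each control and were ranked. Endothelial markers were among the top 10 genes of EC2, EC3 and EC4, and TM markers among those of TM2, TM4, TM5 and TM7. TM2 was led by *Cldn10*, a corneal endothelium marker, with *Myoc* as its single TM marker in the top 10. The 5 corneal endothelium markers summed to 14.9 and 22.8 in its control cells and the 6 TM markers to 28.9 and 40.4. TM1 was led by keratocyte markers and TM10 by fibroblast markers. TM6 had the stress genes *Fos* and *Jun* in its top 10, and no listed marker was among the top 10 genes of TM3, TM8, TM9 and TM11. Cluster 20 was led by pericyte markers and cluster 19 by smooth muscle markers. The name TM labels is used here for the deposited labels TM1 to TM11 and does not mean that all of them are trabecular meshwork. Clusters 17 and 18 had no listed marker among their top 10 genes and are called by number. The authors made the labels from expression, so levels over labels are given as a description. Of the 9 genes, 6 (*Igf1* and *Igfbp2* to *Igfbp6*) were among the genes listed beside the deposited labels. Which of the 9 entered the clustering cannot be told from that list. *Igf1* was itself a top 10 gene of cluster 18, *Igfbp2* of TM5 and *Igfbp5* of TM7.

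The level of a gene in a label is the mean over its cells of UMIs per 10,000. Among the ligands, *Igf1* was highest in cluster 18, at 17 and 6.06 in the controls and 8.91 in *Angpt1*ΔNC. The controls were 2.81-fold apart there, so that the mutant lay between them. The same spread was seen cell by cell, since 60.5% and 18.2% of control cells of cluster 18 reached 10 per 10,000, against 32.2% of *Angpt1*ΔNC cells. Cluster 13 followed at 4.8 and 4.05 in the controls, then TM10 at 2.87 and 2.92, TM2 at 1.77 and 1.33 and TM3 at 1.18 and 1.39. TM2 and TM3 did not differ beyond their spread. *Igf1* was at 1 or more in 9 of 34 labels.

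*Igf2*, the imprinted fetal ligand, was close to absent, with 69 and 99 UMIs in all kept control cells and 30 in *Angpt1*ΔNC. Its highest label was TM3, at 0.103 and 0.156 per 10,000 in the controls and 0.0165 in the mutant. Below TM3, the next labels overlapped each other in the controls.

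The receptor *Igf1r* varied least over the labels. Its highest label, the smooth muscle cluster 19 (1.17 and 1.39 in the controls, 1.73 in *Angpt1*ΔNC), was 2.51 times the median label, whereas for the binding proteins this ratio ran from 5.82 (*Igfbp7*) to 283 (*Igfbp2*). TM2, TM7, TM4 and TM1 came next, between 0.731 and 1.01 in the controls, and did not separate from each other. In all 5 of these labels the *Angpt1*ΔNC level was above both controls.

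**Figure D1:**
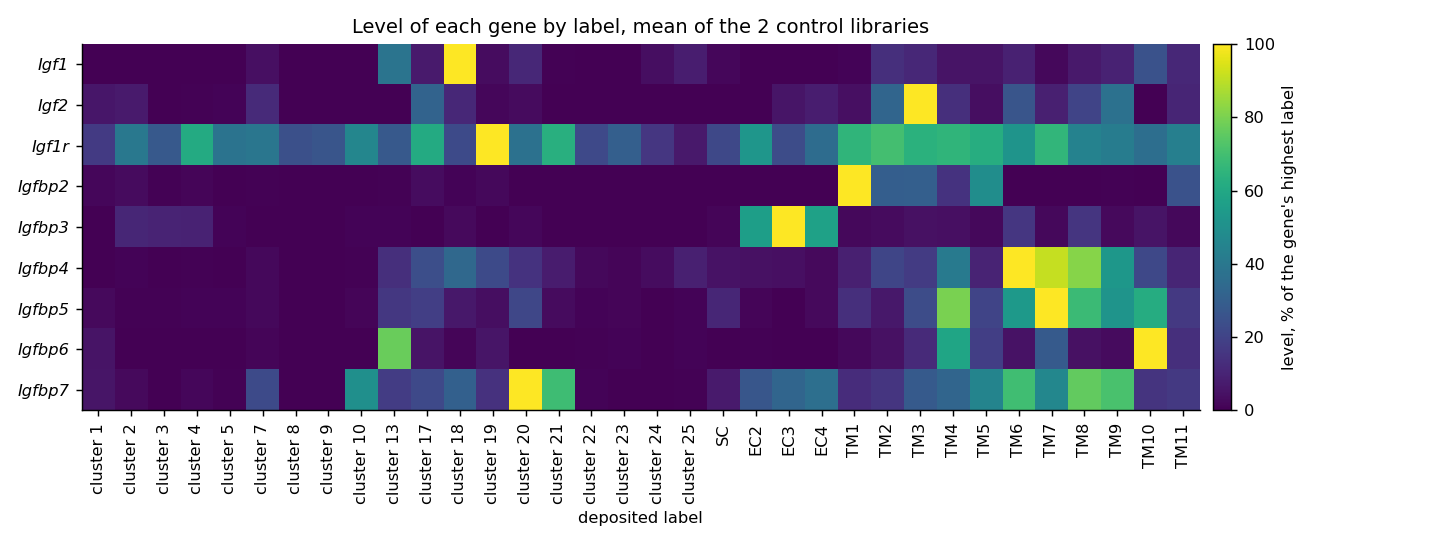
Level of the 9 genes (rows) in each of the 34 ranked labels (columns), as the mean of the 2 control libraries, coloured as percent of the gene's highest label. The binding proteins each peak in different labels, with *Igfbp2* in TM1, *Igfbp3* in EC3, *Igfbp4* in TM6, *Igfbp5* in TM7, *Igfbp6* in TM10 and *Igfbp7* in cluster 20, while *Igf1r* has intermediate colours across most labels.

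Each binding protein peaked in a different label. *Igfbp2*, a brake on IGF that also holds RGD-dependent integrin contacts, reached 226 and 197 per 10,000 in the control cells of TM1 and 148 in *Angpt1*ΔNC. Every control cell of TM1 had at least 10 per 10,000. TM5 followed at 94.1 and 113, then TM3 (63.1 and 65.4), TM2 (53.9 and 73) and TM11 (48.8 and 57.3), where TM2 overlapped both TM3 and TM11 but these did not overlap each other. The fall beyond these labels was steep, since TM4 was at 27.1 and 34.8 and the next label, cluster 17, was under 8 in both controls. TM1 to TM11 held 90.5% and 91.2% of all control *Igfbp2* UMIs.

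*Igfbp3*, the main carrier of IGF in plasma, was the member that peaked in endothelium. It was at 23.5 and 26.3 per 10,000 in control EC3 and 25 in *Angpt1*ΔNC, at 14.5, 13.9 and 10.2 in EC4, and at 10.8, 17 and 14.6 in EC2. EC4 and EC2 did not separate. The highest labels outside endothelium were TM6 (5.17 and 2.67 in the controls) and TM8 (5.15 and 2.54). SC endothelium was not one of the high labels, at 0.295 and 0.291 in 46 and 63 control cells and 0.625 in 15 *Angpt1*ΔNC cells.

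*Igfbp4* and *Igfbp5*, the substrates of pappalysins, were highest in overlapping sets of TM labels. *Igfbp4* was at 65.2 and 49.5 in control TM6, 55.7 and 49 in TM7, 48.4 and 45.3 in TM8, 33.6 and 27.3 in TM9 and 27.2 and 20.2 in TM4, and TM6 and TM7 did not separate. *Igfbp5*, which also binds extracellular matrix, was at 78.1 and 74.9 in control TM7, 68.4 and 53.8 in TM4, 52.5 and 51.6 in TM8, 54.2 and 40.6 in TM10 and 42.3 and 39.7 in TM6. For *Igfbp5* 13 labels reached 10 per 10,000, and for *Igfbp4* 10 labels did.

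*Igfbp6*, which prefers IGF-II, was narrower, with 3 labels at 10 or more. These were TM10 (30.8 and 29.8), cluster 13 (25.5 and 21.3) and TM4 (17.8 and 17.9), and each separated from the next. TM7 (9.16 and 8.07) and TM5 (4.75 and 6.38) followed.

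*Igfbp7* was the broadest, with 22 of 34 labels at 10 or more. The pericyte cluster 20 led at 131 and 120 in the controls and separated from the rest. TM8 (97.8 and 92.9), TM9 (95.8 and 83.7), TM6 (91.6 and 82.5) and cluster 21 (87.2 and 85.9) came next. Each overlapped its neighbour in this order, while TM8 lay above TM6 and cluster 21 in both controls.

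**Figure D2:**
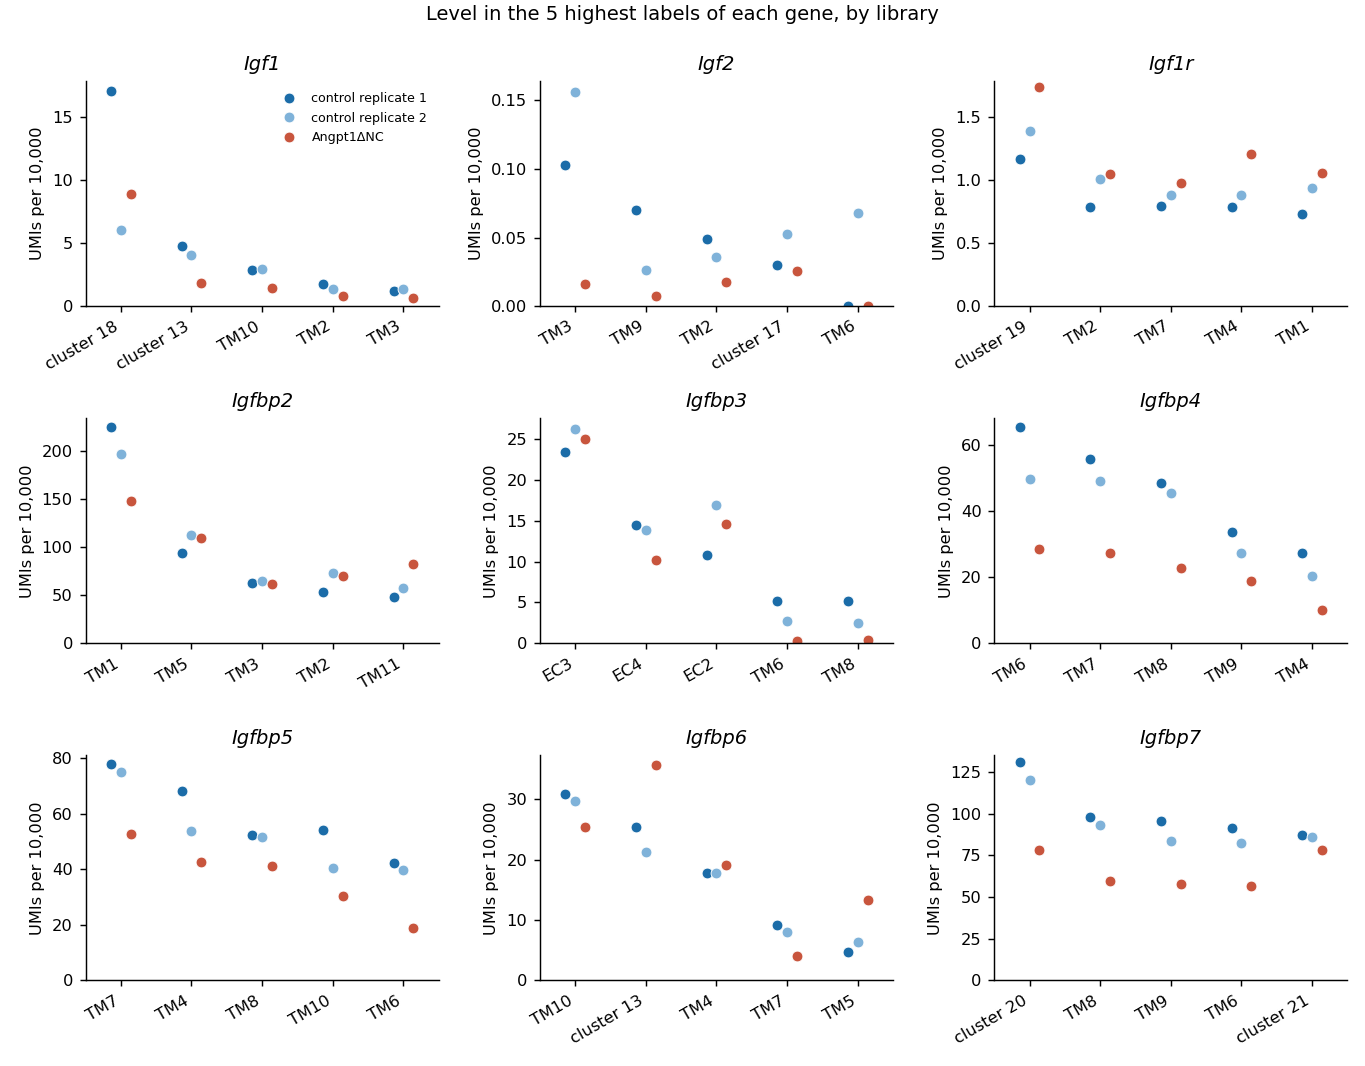
Level (UMIs per 10,000) of each gene in its 5 highest labels, 1 point per library, with the 2 controls and the *Angpt1*ΔNC library in different colours. Control points sit close together for most binding proteins and 2.81-fold apart for *Igf1* in cluster 18, and the *Angpt1*ΔNC points for *Igfbp4* lie below both controls in all 5 labels.

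Over the 34 labels, the genes whose control pattern was most like that of each member were found by Pearson correlation of log2 levels among 4826 genes. All points share the same 2 libraries and the labels were drawn from expression, so these values are descriptive. *Igfbp2* was most like *Col8a2* (r = 0.87), a collagen of Descemet's membrane, then *Mme* and *Ddost*. *Igfbp4* was most like the collectin *Colec12* (0.9), then *Cdh11* and *Cped1*. *Igfbp5* was most like *Fbn1* (0.89), which encodes fibrillin-1, then *Colec12* and *Bicc1*. *Igfbp6* was most like *1500015O10Rik* (0.87), then *Il11ra1* and *Igsf10*, and *Igfbp7* was most like *Cald1* (0.92), the contractile regulator caldesmon, then *Gjc1* and *Zfp503*. The patterns of *Igfbp3* (*Ece1*, 0.78, then *Uaca* and *Cx3cl1*), *Igf1* (*Colec12*, 0.82, then *Cd302* and *Tnfaip6*), *Igf1r* (*Tmem165*, 0.76, then *Pcdh7* and *Fam220a*) and *Igf2* (*Nefl*, 0.73, then *Tspan6* and *Rerg*) had less close counterparts. Within the family the closest pair was *Igfbp4* and *Igfbp5* (0.83). The neighbouring genes *Igfbp2* and *Igfbp5* reached 0.45.

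Genotypes were compared on UMIs summed per library in the 17 labels with at least 100 cells in each library (8 TM labels and 9 clusters), using edgeR's quasi-likelihood test with Benjamini-Hochberg adjustment over all genes of a label. With 2 controls and 1 mutant library the fit had 1 residual degree of freedom and assumed that the lone library varied like the controls. Because animals were pooled, the p-values do not measure the spread between animals. The fit also borrowed dispersion from other genes, so a small p-value need not follow a gene's own spread between libraries. Of 133 pairs of member and label that could be tested, 12 were higher in *Angpt1*ΔNC at an adjusted p under 0.05 and 31 were lower. That is 9.02% and 23.3% of the pairs, beside 2.97% and 3.17% of the 168510 pairs over all genes. The count passing the test varied with the label, from 0.288% of genes in cluster 17 to 15.1% in TM9. *Igfbp3* was lower in 8 of 16 labels, *Igfbp4* in 8 of 17, *Igfbp7* in 5 of 17 and *Igfbp5* in 4 of 17, none of them higher in any. *Igfbp2* was higher in 7 of 17 and lower in none. *Igfbp6* rose in 3 of 16 and fell in 3, *Igf1* rose in 2 of 13 and fell in 2, *Igf2* fell in 1 of 3, and *Igf1r* was called in none of 17. Of the 43 called pairs, 23 were also called by DESeq2, and 17 kept the call under every alternative that gave a value. These were *Igfbp2* in cluster 18, TM4, TM8 and TM10, *Igfbp3* in TM4, TM8 and TM10, *Igfbp4* in cluster 20, TM4, TM7 and TM8, *Igfbp5* in cluster 20 and TM1, *Igfbp6* in TM7 and TM8, and *Igfbp7* in cluster 20 and TM10. TM3 and TM8 had too few male-typed cells for a fit, so pairs in these labels were not tested on male-typed cells.

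**Figure D3:**
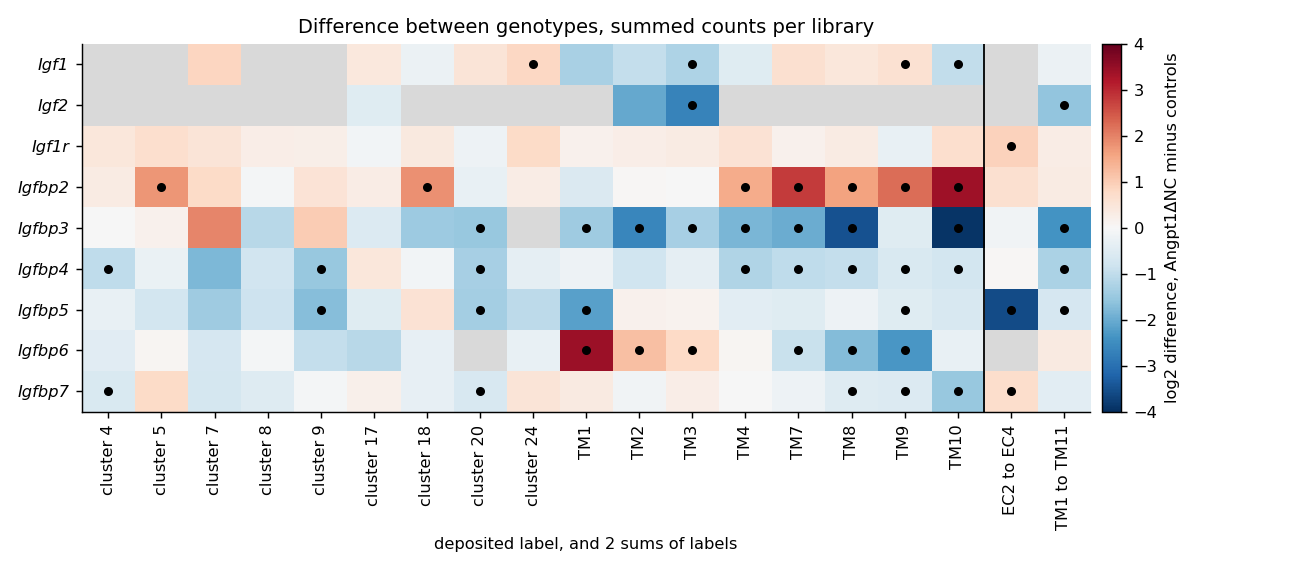
Log2 difference (*Angpt1*ΔNC minus controls, red higher and blue lower) for each gene (rows) in the 17 tested labels and the 2 sums of labels (columns). Dots mark an adjusted p under 0.05 and grey cells were not tested. In the 17 labels the dots of *Igfbp3*, *Igfbp4*, *Igfbp5* and *Igfbp7* are on blue cells and those of *Igfbp2* on red cells.

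*Igfbp2* rose in labels where control cells had little of it. In the fibroblast-marked TM10 its level was 0.517 and 0.93 per 10,000 in the controls and 9.87 in *Angpt1*ΔNC. The mutant was above both controls, by 3.40 ± 0.23 on the log2 scale (10.6-fold, adjusted p = 3.12e-32). *Igfbp2* UMIs were found in 9.28% and 8.38% of control TM10 cells and 44.1% of mutant ones, whereas the immune cluster 24, taken as a background of free RNA, had 6.21%, 9.11% and 10.2% at like depth (medians of 6622, 6645 and 8135 UMIs in TM10, and 6577, 6554 and 6903 in cluster 24). The control share in TM10 was thus at background and the mutant share was not. The increase was carried by part of the cells, since 26.1% of mutant TM10 cells reached 10 per 10,000 (95% exact interval 19.9% to 33%) beside 2.06% and 1.2% of control cells.

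In TM4, which already expressed *Igfbp2*, the whole distribution was higher. The median TM4 cell was at 11.1 and 16.8 per 10,000 in the controls and 76.9 in *Angpt1*ΔNC, and the mean went from 27.1 and 34.8 to 90.3 (log2 1.48 ± 0.19, 2.79-fold, adjusted p = 0.0001). Cells at 10 or more made up 51.4% and 55.8% of control TM4 and 92% of mutant TM4. TM7 (0.429 and 1.12 against 4.42, log2 2.80 ± 0.39, adjusted p = 0.00644), TM9 (0.992 and 0.755 against 3.74, 2.23 ± 0.22, adjusted p = 5.75e-21) and TM8 (0.505 and 0.523 against 1.42, 1.62 ± 0.22, adjusted p = 0.00168) had a higher mean. The median cell of TM7 and TM8 was at 0 in every library. The highest 18 of 174 mutant TM7 cells held 74% of the level, and the highest 16 of 155 mutant TM8 cells held 77.8%. Outside the TM labels *Igfbp2* was higher in cluster 18 (2.31 and 1.54 against 6.51, 1.82 ± 0.25, adjusted p = 3.22e-06) and in the corneal epithelial cluster 5 at a low level (0.0967 and 0.104 against 0.287, 1.75 ± 0.19, adjusted p = 0.00871). The control level in cluster 5 was below that of cluster 24 (0.112 and 0.134, and 0.159 in the mutant) and was read as background. In TM7 the difference was 2.23 without control replicate 1 and 3.56 without control replicate 2, and DESeq2 made no call (adjusted p = 0.155). On male-typed cells the increase was kept in cluster 18, TM4, TM7, TM9 and TM10 (log2 1.17 to 3.78), but the cluster 5 call was lost (0.85, adjusted p = 0.139). TM8 had no fit on male-typed cells. The labels that held most *Igfbp2* in the controls were not called: TM1 had a difference of −0.58 (adjusted p = 0.207), TM2 of 0.06 (adjusted p = 0.937) and TM3 of −0.02 (adjusted p = 0.979). Cluster 13, with 64 mutant cells and so not among the tested labels, was at 1.66 and 1.16 in the controls and 20 in *Angpt1*ΔNC. Few cells carried this mean. The median cell of cluster 13 was at 0 in every library, and 7 of the 64 mutant cells held 87.1% of the level.

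**Figure D4:**
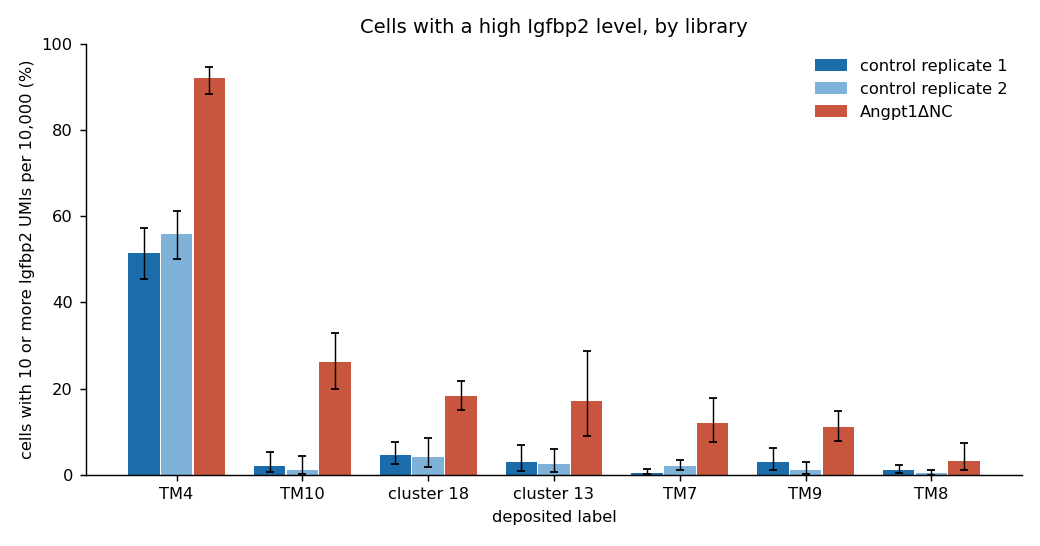
Percent of cells with at least 10 *Igfbp2* UMIs per 10,000 in 7 labels, including cluster 13, which was not tested. Bars are single libraries, with exact 95% binomial intervals that cover counting error only. The *Angpt1*ΔNC share is above both control shares in each label, from 3.23% in TM8 to 92% in TM4.

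*Igfbp3* fell in 7 of the 8 tested TM labels, of which TM10 was marked by fibroblast genes, TM1 by keratocyte genes and TM2 in part by corneal endothelium genes. In TM10 it was at 0.916 and 1.62 per 10,000 in the controls and 0.0916 in *Angpt1*ΔNC (log2 −3.91 ± 0.36, 15-fold lower, adjusted p = 2.13e-19), and 11 *Igfbp3* UMIs were left in 188 mutant cells. Cells with a UMI made up 23.7% and 17.4% of control TM10 and 3.72% of mutant TM10, beside 0.583% to 0.998% in cluster 24. In TM8 the level was 5.15 and 2.54 against 0.415 (−3.50 ± 0.45, 11.3-fold lower, adjusted p = 0.00103), although the controls themselves were 2.03-fold apart. The median control cell of the 7 labels had no *Igfbp3* UMI, and the upper quartile of control cells was 0 in each except TM8. The log2 difference was −2.62 in TM2 (adjusted p = 0.00553), −1.99 in TM7 (0.00549), −1.82 in TM4 (0.000185), −1.43 in TM1 (0.00301), −1.33 in TM3 (4.29e-05) and −1.52 in the pericyte cluster 20 (0.0176). In TM1 the controls were apart (71.8 and 31.9 CPM against 19.4), the difference was −0.74 without control replicate 1 and −1.93 without control replicate 2, and DESeq2 made no call (adjusted p = 1). On male-typed cells the calls in TM7 (−0.14, adjusted p = 0.912) and cluster 20 (−0.38, adjusted p = 0.755) were lost. TM9 was the tested TM label without a call (−0.49, adjusted p = 0.251), and its controls were far apart at 103 and 21 UMIs.

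*Igfbp4* was lower in most of the labels where it was abundant. It went from 48.4 and 45.3 per 10,000 to 22.6 in TM8 (log2 −0.94 ± 0.14, adjusted p = 0.00373), from 55.7 and 49 to 27.3 in TM7 (−1.01 ± 0.16, adjusted p = 0.0125) and from 27.2 and 20.2 to 10.1 in TM4 (−1.19 ± 0.21, adjusted p = 0.00189). The median TM7 cell went from 52.1 and 44.9 to 24.3 while cells at 10 or more made up 90.6%, 92.2% and 90.2%. TM9 was lower (33.6 and 27.3 against 18.9, −0.62, adjusted p = 0.00499). TM10 was called lower (16.2 and 8.85 against 7.25, −0.74, adjusted p = 0.0281), but the difference was −0.22 without control replicate 1 and −1.10 without control replicate 2, and DESeq2 made no call (adjusted p = 1). *Igfbp4* was also lower in the pericyte cluster 20, from 9.29 and 7.43 to 3.38 (−1.33 ± 0.18, adjusted p = 0.0001). TM6, with the highest control level, had 50 mutant cells and was not among the tested labels, at 65.2 and 49.5 against 28.3. Clusters 17 and 18 were not called (15.9, 11.7 and 16.2 per 10,000 in cluster 17, and 18.6, 20 and 17.6 in cluster 18), with log2 differences of 0.46 (adjusted p = 0.29) and −0.10 (adjusted p = 0.905). In the limbal epithelial cluster 4 *Igfbp4* was called lower (−1.01, adjusted p = 5.88e-05) on 186, 334 and 189 UMIs, with a difference of −1.34 without control replicate 1 and −0.52 without control replicate 2. In the melanocyte cluster 9 it was also called (−1.53, adjusted p = 0.0032), at a level of 0.227 and 0.147 against 0.0469, and the call was lost on male-typed cells (−0.69, adjusted p = 0.739). Control *Igfbp4* was at 1.73 to 2 per 10,000 in cluster 24, taken as the background of free RNA. Control levels in cluster 4 (0.319 to 0.515) and cluster 9 were below this. The part of free RNA in these 2 calls was not tested.

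*Igfbp5* had its largest fall in the TM labels in TM1, from 8.96 and 11.5 per 10,000 to 3.59 (log2 −2.16 ± 0.25, 4.48-fold lower, adjusted p = 8.26e-15). The median TM1 cell was at 7.93 and 9.24 in the controls and 1.08 in *Angpt1*ΔNC. The pericyte cluster 20 went from 17.5 and 15 to 6 (−1.37 ± 0.18, adjusted p = 7.41e-05) and TM9 from 45.5 and 33.5 to 25.5 (−0.50, adjusted p = 0.0255). The TM9 difference was −0.25 without control replicate 1 and −0.65 without control replicate 2. The mutant was also under both controls in the 4 labels with the highest level among those tested, TM7 (78.1 and 74.9 against 52.8), TM4 (68.4 and 53.8 against 42.7), TM8 (52.5 and 51.6 against 41.3) and TM10 (54.2 and 40.6 against 30.5), none of which passed the test. The call in cluster 9 (−1.69, adjusted p = 0.00582) rested on 5.2%, 5.63% and 2.74% of cells with a UMI, beside 8.74%, 11.2% and 5.24% in cluster 24. It was lost on male-typed cells (−0.42, adjusted p = 0.91).

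*Igfbp6* moved in both directions, by label. In TM1 it was at 0.505 and 0.865 per 10,000 in the controls and at 7 in *Angpt1*ΔNC (log2 3.41 ± 0.23, 10.6-fold higher, adjusted p = 1.12e-45). Cells with a UMI were 25.2% and 37.2% of control TM1 and 76.5% of mutant TM1, beside 2.24% to 3.11% in cluster 24. The difference was 2.89 without control replicate 1 and 4.10 without control replicate 2, and DESeq2 made no call (adjusted p = 0.0631). It was also higher in TM2 (1.23 and 1.45 against 3.21, log2 1.20, adjusted p = 0.0166) and TM3 (3.67 and 3.56 against 5.77, 0.81, adjusted p = 0.00193). It was lower in TM9 (1.13 and 0.583 against 0.17, −2.34 ± 0.30, adjusted p = 5.94e-13), TM8 (1.29 and 1.53 against 0.459, −1.72 ± 0.27, adjusted p = 0.0044) and TM7 (9.16 and 8.07 against 4.12, −0.90 ± 0.16, adjusted p = 0.02). TM10 and TM4, 2 of its 3 highest labels, were not called, and the third, cluster 13, was not among the tested labels. TM1 therefore held less *Igfbp5* and more *Igfbp6* in the mutant library, with its leading *Igfbp2* transcript not called.

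*Igfbp7* fell in TM10, from 16.9 and 20.5 per 10,000 to 6.81 (log2 −1.53 ± 0.26, 2.88-fold lower, adjusted p = 5.17e-07), and in its highest label, the pericyte cluster 20, from 131 and 120 to 78.2 (−0.64 ± 0.17, adjusted p = 0.0297). TM9 (95.8 and 83.7 against 57.7, −0.55, adjusted p = 0.00337), TM8 (97.8 and 92.9 against 59.5, −0.52, adjusted p = 0.0404) and cluster 4 (−0.62, adjusted p = 0.00362, or −0.79 and −0.40 without control replicate 1 or 2) were lower as well. In the pericyte cluster 20, *Igfbp4*, *Igfbp5* and *Igfbp7* were called lower under every alternative that gave a value, and *Igfbp3*, at a low level there, was not. The 6 endothelial markers in cluster 20 summed to 5.9 and 6.72 in the controls and 3.51 in *Angpt1*ΔNC, and their part in these results was not tested.

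Of the ligands, *Igf1* fell in TM3, from 1.18 and 1.39 per 10,000 to 0.65 (log2 −1.24 ± 0.26, adjusted p = 9.78e-05), and in TM10, from 2.87 and 2.92 to 1.47 (−0.99 ± 0.23, adjusted p = 0.000667). It rose in TM9 (0.61 ± 0.22, adjusted p = 0.0397) and in the macrophage-marked cluster 24 (0.82 ± 0.16, adjusted p = 0.0117). The TM9 call was lost without a filter, with adjustment over all labels and with equal cell numbers (edgeR adjusted p = 0.0818, 0.0727 and 0.265). The upper quartile of TM9 cells was 1.9 in both controls and 1.84 in the mutant. DESeq2 called *Igf1* in none of these labels (adjusted p = 0.187 in TM3, 0.166 in TM10, 0.544 in TM9 and 0.806 in cluster 24). *Igf2* in TM3 fell from 17 and 31 UMIs to 2 (−2.66 ± 0.82, adjusted p = 0.0237), and the ratio of controls to mutant was 6.59 with a counting interval of 1.73 to 55.9. This call was lost with equal cell numbers (−2.47, edgeR adjusted p = 0.183), and TM3 had no fit on male-typed cells. *Igf1r* passed the test in none of the 17 labels, with differences of −0.30 to 0.78 and a median of 0.32.

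Markers moved beside these results. In TM4 the summed level of the 6 TM markers (*Myoc*, *Chil1*, *Chad*, *Nell2*, *Fmo2*, *Tnc*) was 134 and 137 in the controls and 62.2 in *Angpt1*ΔNC, and the 6 pericyte markers were at 10.2, 7.2 and 1.82. The 5 keratocyte markers in TM4 were at 23.8, 28.4 and 41.5 and the 6 fibroblast markers at 9.5, 9.95 and 2.32. In TM4, then, keratocyte markers were higher in the mutant library and the TM, pericyte and fibroblast markers lower. In TM7 the TM markers were at 33.2, 43.6 and 11.7, the pericyte markers at 13.8, 12.3 and 4.72 and the 12 stress genes at 56.8, 55.5 and 26.9. The TM markers were at 2.69, 5.01 and 0.723 in TM8 and at 1.67, 2.95 and 0.0996 in TM9, and in TM3 at 22.8, 28.7 and 14.1. TM markers were thus lower in the mutant library in each of these labels. In TM10 the TM markers were at 10.1, 10.7 and 4.36 and the 6 fibroblast markers at 78.3, 67.1 and 99.8, while the 12 stress genes were at 105, 117 and 56.1. In TM1 the 5 keratocyte markers were at 187, 225 and 125. The part of these shifts in the results was not tested. Over the 8 tested TM labels the 5 pan-immune markers summed to at most 0.138 in the controls and 0.195 in the mutant, with up to 4 of them at 0, the 5 pan-epithelial markers to at most 1.04 and 1.1, and the 6 endothelial markers to at most 3.3 and 1.83.

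Endothelium was taken as the sum of EC2 to EC4 (246, 263 and 182 cells), since each label alone was small, and set beside the sum of TM1 to TM11 (2803, 3324 and 1946 cells). In endothelium, 6.39% of 9280 genes were higher and 3.17% lower in *Angpt1*ΔNC. *Igfbp7* had the highest CPM of the members, at 4326 and 3762 in the controls and 6547 in the mutant. *Igfbp3*, which peaked in EC3, was at 1812 and 1910 CPM in the controls and 1689 in the mutant (log2 −0.14 ± 0.14, adjusted p = 0.604). *Igfbp4* was not called either (0.04 ± 0.16, adjusted p = 0.911). *Igfbp7* was higher (0.69 ± 0.13, 1.62-fold, adjusted p = 0.00575), with EC4 at 48.2 and 43.7 per 10,000 in the controls and 73.9 in the mutant, EC2 at 34.9, 32.9 and 55.9, and EC3 at 45.2, 37 and 40. *Igf1r* was higher (63, 103 and 97 UMIs, 0.91 ± 0.24, adjusted p = 0.0346), but not on male-typed cells (0.51, adjusted p = 0.433). The mix of labels in the endothelial sum also differed, with EC3 at 118, 118 and 58 cells. Mean control *Igf1r* was lowest in EC3 (0.297, beside 0.67 in EC2 and 0.454 in EC4), and *Igfbp3* was highest there. The part of this mix in the endothelial results was not tested.

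*Igfbp5* was lower in endothelium, with 177 and 166 UMIs in the controls and 9 in *Angpt1*ΔNC (−3.57 ± 0.36, 11.9-fold lower, adjusted p = 0.000103). EC4 held 149 and 118 of these control UMIs, at 2.03 and 1.98 per 10,000 in the controls and 0.0386 in the mutant. Few cells carried it, since 5 of 96 and 3 of 107 control EC4 cells, and 0 of 87 mutant cells, reached 10 per 10,000. Cells with an *Igfbp5* UMI made up 34.4% and 20.6% of control EC4, against 8.74% and 11.2% of cluster 24, and 3.45% of mutant EC4, against 5.24% of cluster 24. The mutant share was at background, and the pericyte marker sum in EC4 was 2.7 and 0.544 in the controls and 0.839 in the mutant. The part of pericyte RNA in this result was not tested.

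In the sum of TM1 to TM11, 3.46% of 13942 genes were higher and 5.52% lower in *Angpt1*ΔNC. *Igfbp3* (log2 −2.38 ± 0.27, 5.22-fold lower, adjusted p = 0.0014), *Igfbp4* (−1.27 ± 0.17, 2.42-fold lower, adjusted p = 0.00301), *Igfbp5* (−0.67 ± 0.15, adjusted p = 0.0308) and *Igf2* (54, 66 and 15 UMIs, −1.59 ± 0.40, adjusted p = 0.0421) were lower. The *Igf2* call was lost on male-typed cells (−1.79, adjusted p = 0.0708). *Igfbp7* was not called (−0.43 ± 0.15, adjusted p = 0.109), nor was *Igfbp2* (0.34 ± 0.15, adjusted p = 0.197). In such a sum, fewer cells of a type and less RNA per cell cannot be told apart, and TM7 and TM8, which are rich in *Igfbp4* and *Igfbp5*, made up 44.9% and 40.6% of control TM cells and 16.9% of mutant TM cells.

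The difference between the genotype effect in the sum of TM1 to TM11 and that in endothelium was then tested itself, in 1 edgeR fit with the library as a block, a test chosen after seeing the data. Of 13522 genes, 6.46% differed. Of the 9 members 4 did: the effect in the TM labels minus that in endothelium was −2.19 ± 0.19 on the log2 scale for *Igfbp3* (adjusted p = 4.79e-10), −1.28 ± 0.16 for *Igfbp4* (adjusted p = 5.32e-07), −1.11 ± 0.12 for *Igfbp7* (adjusted p = 2.29e-08) and 2.93 ± 0.31 for *Igfbp5* (adjusted p = 2.7e-08). For *Igfbp7* the endothelial effect was the called one, and it was a rise. For *Igf1r* (−0.60, adjusted p = 0.135) and *Igfbp2* (−0.29, adjusted p = 0.812) no difference was found.

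**Figure D5:**
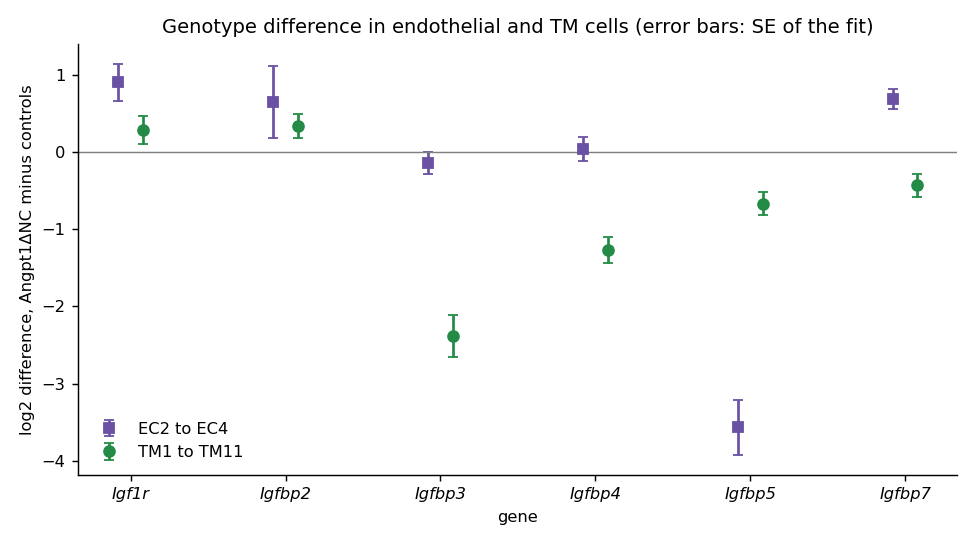
Log2 difference (*Angpt1*ΔNC minus controls) with its standard error in the sum of EC2 to EC4 (squares) and in the sum of TM1 to TM11 (circles), for the 6 genes tested in both. *Igfbp3* and *Igfbp4* are near 0 in endothelium (−0.14 and 0.04) and lower in TM1 to TM11 (−2.38 and −1.27), and the difference of *Igfbp5* is −3.57 in endothelium and −0.67 in TM1 to TM11.

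Another 19 IGF pathway genes were listed by role. Of their 323 pairs with the tested labels 171 could be tested, and 10 (5.85%) were higher and 7 (4.09%) lower, beside 2.97% and 3.17% of pairs over all genes. *Stc1*, which encodes the pappalysin inhibitor stanniocalcin-1, accounted for 5 of the 10. Its summed UMIs were 82, 91 and 949 in TM9 (log2 2.82, adjusted p = 3.12e-32), 585, 386 and 4441 in cluster 18 (1.50, adjusted p = 7.14e-05) and 4, 0 and 61 in TM10 (4.52, adjusted p = 1.85e-12), and it was also higher in the pericyte cluster 20 (1.41, adjusted p = 1.7e-05) and TM3 (1.38, adjusted p = 0.00797). The related *Stc2* was tested in TM1, where it fell from 97 and 76 UMIs to 19 (−1.52, adjusted p = 0.00306). The binding protein protease *Htra1* rose in TM4 (0.84, adjusted p = 0.0105) and TM7 (1.32, adjusted p = 0.00866) and was called in no other tested label. *Igfbp4* fell and *Igfbp2* rose in both of these labels, but also in TM8, TM9 and TM10. All of these are transcript levels, and a link between them was not tested.

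Among receptors, *Igf2r*, which clears IGF-II, fell in TM4 (−0.86, adjusted p = 0.0196) and TM10 (−0.89, adjusted p = 0.0199), and the insulin receptor *Insr* was called in none of 15 labels. The growth hormone receptor *Ghr* rose in TM3 (1.00, adjusted p = 0.00254). Of the adaptors, *Irs2* rose in cluster 24 (1.13, adjusted p = 0.00193) and fell in TM9 (−0.78, adjusted p = 0.00859), *Grb10* rose in cluster 4 (0.84, adjusted p = 0.00973) and fell in TM3 (−0.98, adjusted p = 0.00519) and TM9 (−0.98, adjusted p = 0.00596), and *Irs1* and *Shc1* were called in no label. *H19*, the imprinted neighbour of *Igf2*, fell in TM3 from 120 and 142 UMIs to 24 (−1.59, adjusted p = 1.04e-05), the same label in which *Igf2* fell. *Pappa*, *Pappa2* and *Htra3* had no call in the 3, 7 and 14 labels tested, and *Igfbp1*, *Igfbpl1*, *Igfals*, *Insrr* and *Irs4* had at most 21 UMIs in all and were not tested.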

How the data were processed

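Single-cell suspensions of the limbus and iridocorneal angle were sequenced on the 10x Genomics platform as 3 libraries, grouped by the genotype in the labels (2 control, 1 *Angpt1*ΔNC). The authors deposited raw UMI counts per gene and cell with a label for each kept cell. Per the submitters' processing notes, these counts came from Cell Ranger 2.1.1 (the matrix header names 3.0.2) with mm10, and from Seurat 3.1.3. The authors kept cells with at least 200 genes, at least 1000 UMIs and at most 10% mitochondrial reads and removed doublets with scDblFinder, so no further doublet call was made. Free RNA was not removed.

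Here the level of a gene was the mean over cells of UMIs per 10,000, and shares of cells have exact Clopper-Pearson 95% intervals, which cover counting error only. Summed counts were tested per label with edgeR 4.0.16 in R 4.3.3 (TMM, filterByExpr, quasi-likelihood F-test, Benjamini-Hochberg over all genes of a label, threshold 0.05). The procedure was also run on simulated counts with the same dispersion for all genes and no sex difference. That simulation does not show how it performs where genes vary unequally between libraries or where sex moves with genotype. Python 3.11.15 with numpy 2.4.6, scipy 1.17.1 and pandas 2.3.3 was used for the levels. Alternatives were RLE size factors, no filter, DESeq2 1.42.0, adjustment over all labels, labels with at least 50 cells, equal cell numbers, male-typed cells and each control left out. Named items were the 9 members, their 5 highest control labels, every called pair, the 3 genes most like each member and 19 pathway genes. The members and lists were chosen with earlier results of these data known. For 20 pairs of member and label the filter on low counts left no test.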

Additional observations from a re-analysis of the deposited data

Results flagged for a closer look

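For 4 binding proteins the genotype effect in the sum of TM1 to TM11 differed from that in the endothelial sum EC2 to EC4 by a test of the difference itself (edgeR's quasi-likelihood test with Benjamini-Hochberg adjustment over 13522 genes). The effect in TM1 to TM11 minus the endothelial effect was −2.19 on the log2 scale for *Igfbp3*, −1.28 for *Igfbp4*, −1.11 for *Igfbp7* and 2.93 for *Igfbp5*. On male-typed cells the same differences were −1.85, −1.45, −1.42 and 3.50. The share of TM7 or TM8 among TM cells differed between genotypes (44.9% and 40.6% against 16.9%). EC3 made up 118 of 246 and 118 of 263 control cells of EC2 to EC4 and 58 of 182 mutant cells. The part of either mix in these differences was not tested.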

How the results depend on the processing

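Beside the 12 higher and 31 lower pairs of member and label, DESeq2 called 7 and 17, of which 7 and 16 were among them. With labels of at least 50 cells in each library, 20 pairs were higher and 36 lower, over more labels. The other settings gave 9 to 15 higher and 22 to 39 lower pairs. Leaving out either control library left a lone library in each group, so no test was possible. All 12 higher and 31 lower pairs kept their direction. The same libraries had made the calls, so this is no independent check. Of the 43 called pairs, 17 kept the call in every alternative that gave a value, and none reversed. TM3 and TM8 had no value on male-typed cells. The leading label of 9 of 9 members was kept with pooled levels, with cells thinned to 1000 UMIs, without either control (9 to 9) and over every label. In the *Angpt1*ΔNC library 7 of 9 led in the same label, while *Igf2* led in cluster 17 and *Igfbp6* in cluster 13. The 4 differences between TM1 to TM11 and endothelium kept their calls under RLE size factors, without a filter and on male-typed cells. No paired analysis was possible because there was 1 *Angpt1*ΔNC library. Low counts limited *Igf2* most, and 1 mutant library leaves its own variation unmeasured.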
